A study of Homo sapiens with 12 samples.

Results

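The 10 genes described here are 4 claudins (CLDN1, CLDN3, CLDN4 and CLDN7) and 6 genes that mark or regulate epithelial identity (EPCAM, ST14, ESRP1, ESRP2, GRHL2 and OVOL1). They were chosen by name, and all 10 are among the 27745 genes of the count table and the 60675 genes of the RNA immunoprecipitation (RIP) tables. RNA came from MDA-MB231, an established human triple-negative breast cancer line, carrying stable lentiviral short hairpins. The hairpin groups were sh_TDP43 (against TARDBP, the gene of the RNA-binding protein TDP43), sh_SRSF3 (against the splicing factor SRSF3) and sh_control, with 2 RNA-seq libraries each. The RIP groups were RIP-flag-TDP43 with its input from cells overexpressing Flag-tagged TDP43, and RIP of Flag-tagged SRSF3 with its input, with 1 library each. Stably infected cells were selected and harvested in duplicate. No label says that the duplicates were grown apart, and the spread behind the p-values may therefore be technical. The labels also name a combined knockdown, which was not analysed here.

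Claudins are 4-pass membrane proteins that seal tight junctions between epithelial cells, and EPCAM is an adhesion glycoprotein of the epithelial surface that binds and stabilises claudin-7. ST14 encodes matriptase, a membrane serine protease of epithelia. GRHL2 and OVOL1 are transcription factors that maintain the epithelial state, and ESRP1 and ESRP2 are splicing regulators that favour epithelial isoforms. MDA-MB231 is known as a claudin-low, mesenchymal line.

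The region before the start site is shown for the 4 claudins, the only members searched that had a matched window. EPCAM, ESRP2, OVOL1 and ST14 were searched without a match, and the remaining members were not searched. RefSeq windows (GRCh38.p14) were matched by symbol for these 4 members. Each run is the 250 bases upstream of the annotated start, read 5′ to 3′ on the gene's strand. Capitals mark CAGGTG or its reverse complement CACCTG, the E-box form bound by SNAI and ZEB repressors, and the GC box GGGCGG or CCGCCC; both strands were searched and the marked sites do not overlap.
CLDN1, chr3:190322447-190322696, minus strand: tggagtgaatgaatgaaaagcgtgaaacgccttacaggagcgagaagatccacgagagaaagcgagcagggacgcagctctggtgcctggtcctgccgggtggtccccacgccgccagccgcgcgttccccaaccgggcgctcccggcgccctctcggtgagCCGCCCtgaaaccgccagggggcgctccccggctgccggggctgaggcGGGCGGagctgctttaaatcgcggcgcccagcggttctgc
CLDN3, chr7:73770271-73770520, minus strand: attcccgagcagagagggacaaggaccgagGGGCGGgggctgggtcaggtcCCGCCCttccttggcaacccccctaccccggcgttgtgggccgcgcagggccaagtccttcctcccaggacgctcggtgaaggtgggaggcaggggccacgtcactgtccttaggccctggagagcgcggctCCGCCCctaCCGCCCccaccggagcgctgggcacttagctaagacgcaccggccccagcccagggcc
CLDN4, chr7:73830746-73830995, plus strand: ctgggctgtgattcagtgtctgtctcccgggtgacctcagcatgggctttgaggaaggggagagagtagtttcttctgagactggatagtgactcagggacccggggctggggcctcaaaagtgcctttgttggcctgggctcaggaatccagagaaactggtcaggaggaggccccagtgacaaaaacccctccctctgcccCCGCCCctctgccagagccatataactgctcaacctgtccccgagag
CLDN7, chr17:7262479-7262728, minus strand: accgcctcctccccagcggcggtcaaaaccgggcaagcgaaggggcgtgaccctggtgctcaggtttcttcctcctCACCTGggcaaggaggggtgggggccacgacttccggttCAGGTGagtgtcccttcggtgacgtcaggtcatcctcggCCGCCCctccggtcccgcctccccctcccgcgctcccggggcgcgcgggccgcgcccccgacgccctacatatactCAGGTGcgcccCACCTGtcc
The CLDN7 window held 4 CAGGTG matches, with first bases 174, 135, 20 and 9 bases before the start, and 1 GC box. A second RefSeq start of CLDN7 lies further upstream, and its window held neither motif. The windows of CLDN1, CLDN3 and CLDN4 held no CAGGTG and had 2, 4 and 1 GC boxes. Of 35116 windows of the same length, 17.5% held CAGGTG and 42.6% held a GC box. A grainyhead-type motif, AACNGGTT on either strand, was in none of these windows and in 1.49% of all. These matches describe letters and no binding was measured there.

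Both hairpins lowered their targets. TARDBP was at 34.4 and 31.3 CPM (counts scaled to library size, with the TMM correction for library composition) in sh_TDP43 and at 168 and 125 CPM in sh_control. SRSF3 was at 64.1 and 61.7 CPM in sh_SRSF3, against 459 and 404 CPM in sh_control. SRSF3 was also lower in sh_TDP43, at 187 and 180 CPM (log2 -1.23, edgeR adjusted p = 3.05e-07). TARDBP was lower in sh_SRSF3, at 108 and 102 CPM (log2 -0.48, edgeR adjusted p = 0.00326). The part of these lower levels in the changes of the members was not tested. Libraries held 34457445 to 38326930 counted reads. Of 15026 genes tested, 6728 passed in sh_TDP43 against sh_control (3105 higher, 3623 lower) and 10045 in sh_SRSF3 against sh_control (4881 higher, 5164 lower). Upper-quartile scaling gave 3956 higher and 2978 lower in the first comparison, moving the median of all genes by 0.09 on the log2 scale, and 3959 higher and 6020 lower in the second, with a shift of -0.15.

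In the control cells the claudins were led by CLDN4. Per kilobase of exon, in TMM-scaled CPM per kb, CLDN4 averaged 29.1 ± 3.02 (SD, n = 2), above 89.3% of tested genes, followed by CLDN7 at 9.87 ± 0.236, above 69.3% of them, and EPCAM at 2.49 ± 1.02. CLDN1 averaged 1.17 ± 0.251 in sh_control, and below it CLDN3, ESRP2 and ST14 lay between 0.501 and 0.817 with overlapping libraries. ESRP1, GRHL2 and OVOL1 came last, none above 0.0444 CPM per kb in any control library. The order differed by hairpin. In sh_TDP43 CLDN1 stood second at 5.18 ± 0.606, between CLDN4 at 6.41 ± 0.22 and CLDN7 at 3.66 ± 1.05. In sh_SRSF3 CLDN4 (6.67 ± 0.905) and CLDN7 (6.05 ± 0.281) overlapped at the top, and CLDN1, at 0.408 ± 0.0846, lay below EPCAM and ESRP2.

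**Figure D1:**
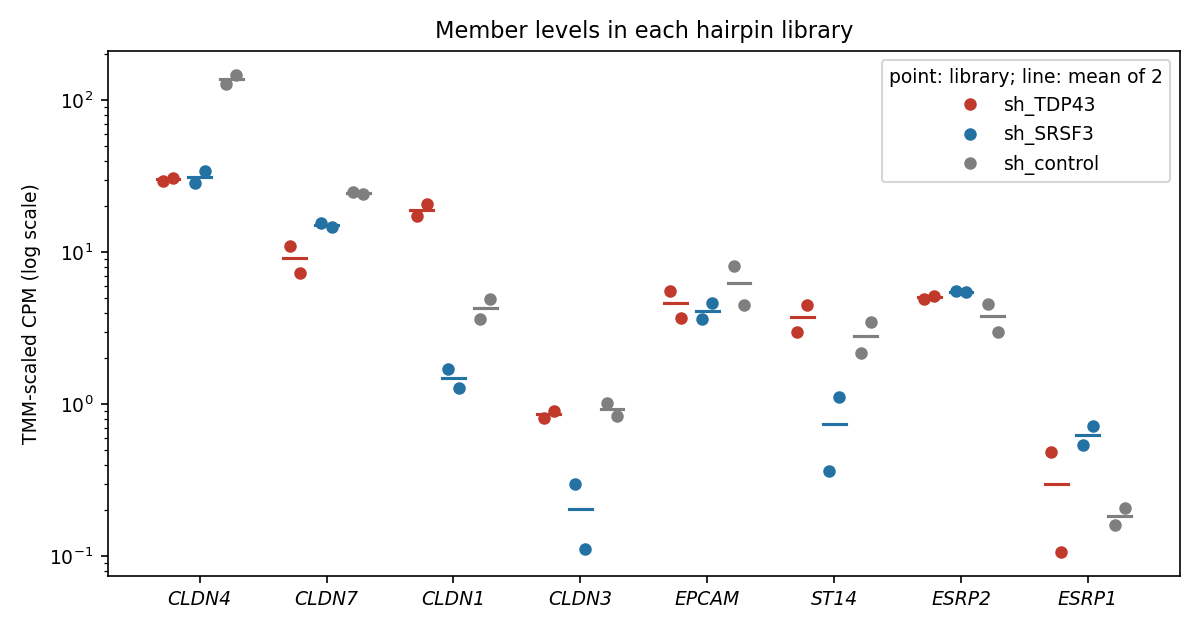
TMM-scaled CPM (log axis) of the 8 tested members in each of 6 hairpin libraries; points are libraries and lines are means of 2. CLDN4 lies between 28.3 and 34.3 CPM in the knockdown libraries, under both sh_control libraries, and CLDN1 is above sh_control in sh_TDP43 and under it in sh_SRSF3.

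Claudin RNA was lower in both knockdowns for CLDN4 and CLDN7, CLDN1 was higher in sh_TDP43 and lower in sh_SRSF3, and CLDN3 was called lower in sh_SRSF3. Of the 8 members that passed the filter on low counts, 3 were called in sh_TDP43 (adjusted p under 0.05 over all genes), where 44.8% of all tested genes were called: CLDN1 higher, CLDN4 and CLDN7 lower. In sh_SRSF3, 6 of 8 were called, against 66.9% of all genes: CLDN1, CLDN3, CLDN4, CLDN7 and ST14 lower, and ESRP1 higher. The 1 higher call rests on ESRP1, which passed the filter through sh_SRSF3, its highest group. Over the 8 members the median log2 change was 0.15 in sh_TDP43 and -1.12 in sh_SRSF3, beside medians of -0.0 and -0.03 over all tested genes. Taken in either direction, these shares are near the background, so those counts do not set the members apart. By direction, 1 of 8 was higher and 2 lower in sh_TDP43, against 20.7% and 24.1% of all genes. In sh_SRSF3, 1 of 8 was higher and 5 lower, against 32.5% and 34.4%. These directional shares were not tested. The knockdown comparisons share the same control libraries. In bulk RNA, fewer cells expressing a gene and less RNA per cell cannot be told apart.

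CLDN4, a barrier-forming claudin, was at 29.4 and 30.9 CPM in sh_TDP43, at 28.3 and 34.3 in sh_SRSF3 and at 127 and 147 in sh_control (ENSG00000189143; GRCh37 chromosome 7, 73213872 to 73247023). All 4 knockdown libraries lay below both controls and the knockdowns overlapped each other. In sh_TDP43 its log2 level fell by 2.18 (SE 0.12, edgeR adjusted p = 1.36e-08), a 4.53-fold lower level. In sh_SRSF3 it fell by 2.12 (SE 0.12, edgeR adjusted p = 2.8e-09). Between the knockdowns its log2 difference was -0.06 (SE 0.12, edgeR adjusted p = 0.684), and with upper-quartile scaling the sign of this uncalled difference turned, to 0.19.

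CLDN7, the claudin that binds EPCAM, was at 11 and 7.27 CPM in sh_TDP43, at 15.6 and 14.6 in sh_SRSF3 and at 25 and 24.2 in sh_control (ENSG00000181885; chromosome 17, 7163222 to 7167302). The 3 groups did not overlap. It fell by 1.43 in sh_TDP43 (SE 0.17, edgeR adjusted p = 1.56e-05) and by 0.71 in sh_SRSF3 (SE 0.17, edgeR adjusted p = 0.00178). It was lower in sh_TDP43 than in sh_SRSF3, with a log2 difference of -0.72 (SE 0.17, edgeR adjusted p = 0.00209). In the sh_TDP43 against sh_SRSF3 comparison 65.5% of all genes were called (33.5% higher, 32% lower), and 4 of the 8 members were: CLDN1, CLDN3 and ST14 higher, and CLDN7 lower. Exons of CLDN7 overlap those of ELP5 and RP1-4G17.5, and the counting used no strand, so reads there cannot be told apart.

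CLDN1, a tight junction claudin of skin and other epithelia, was at 17.4 and 20.6 CPM in sh_TDP43, at 1.71 and 1.27 in sh_SRSF3 and at 3.63 and 4.93 in sh_control (ENSG00000163347; chromosome 3, 190023490 to 190040264). The groups did not overlap, with sh_TDP43 above and sh_SRSF3 below the controls. It rose by 2.15 in sh_TDP43 (SE 0.20, edgeR adjusted p = 1.78e-06) and fell by 1.52 in sh_SRSF3 (SE 0.24, edgeR adjusted p = 5.39e-05). The log2 difference between sh_TDP43 and sh_SRSF3 was 3.67 (SE 0.23, edgeR adjusted p = 9.96e-09), or 12.7-fold. The basal keratin gene KRT17, from the marker lists, was at 10.9 and 23.7 CPM in sh_TDP43, at 0.361 and 0.332 in sh_SRSF3 and at 1.32 and 4.83 in sh_control. The other tested basal markers did not move with CLDN1 in sh_TDP43: OXTR fell by 2.27, ACTA2 fell by 1.16, and TP63 was at -0.51 without passing (edgeR adjusted p = 0.271). In sh_SRSF3 all 4 fell, beside 34.4% of all tested genes, and the part of this list in the CLDN1 result was not tested.

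CLDN3, the neighbour of CLDN4 on chromosome 7 (ENSG00000165215; 73183327 to 73184600), was at 0.814 and 0.909 CPM in sh_TDP43, at 0.3 and 0.111 in sh_SRSF3 and at 1.02 and 0.835 in sh_control. Only 10 and 4 reads were counted in the sh_SRSF3 libraries, against 38 and 32 in sh_control. Libraries of sh_TDP43 and sh_control overlapped, with a log2 difference of -0.11 (SE 0.49). It fell by 2.17 in sh_SRSF3 (SE 0.59, edgeR adjusted p = 0.00477), a call that ended without sh_SRSF3 replicate 2 (-1.63, adjusted p = 0.0521), while without sh_SRSF3 replicate 1 the change was -3.03. The sh_TDP43 level was above that of sh_SRSF3 by 2.07 (SE 0.59, edgeR adjusted p = 0.00701), with 1.52 (adjusted p = 0.07) without sh_SRSF3 replicate 2 and 2.91 without replicate 1.

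**Figure D2:**
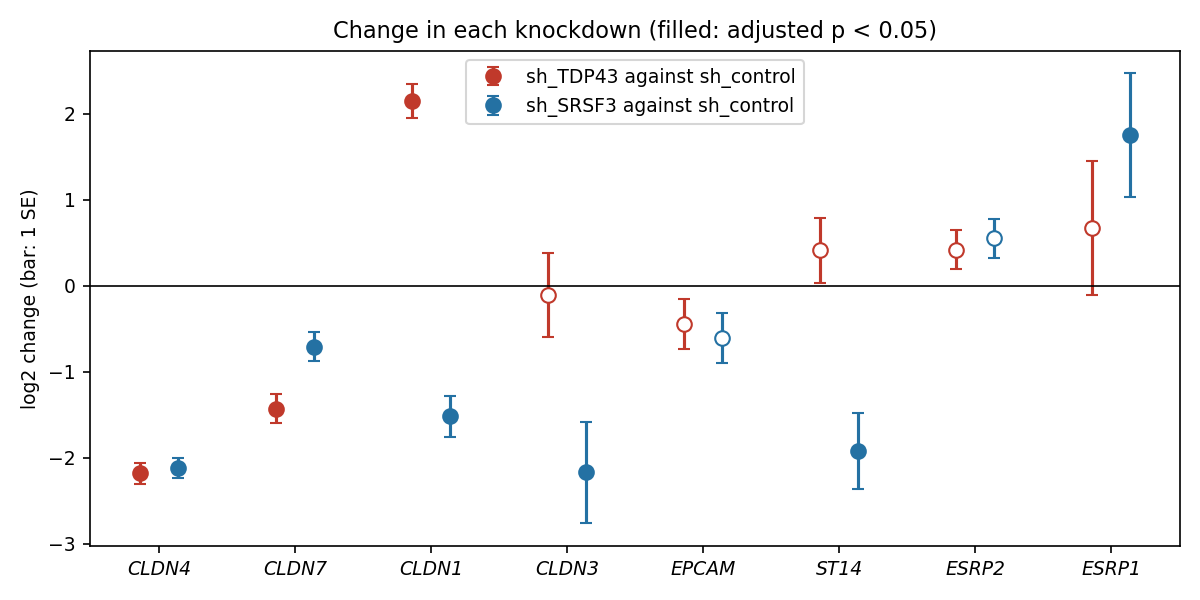
Log2 change of each tested member in sh_TDP43 and sh_SRSF3 against sh_control, with bars of 1 SE and filled points where the adjusted p was under 0.05. CLDN4 is near -2 in both knockdowns (-2.18 and -2.12), while CLDN1 is at 2.15 in sh_TDP43 and -1.52 in sh_SRSF3.

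Summed per kilobase, the 4 claudins came to 16.1 and 15.8 CPM per kb in the sh_TDP43 libraries, to 13 and 13.6 in sh_SRSF3 and to 38.8 and 42.9 in sh_control. The makeup differed between the knockdowns. CLDN4 made up 39 and 41.5% of this sum in sh_TDP43, 46.4 and 53.8% in sh_SRSF3 and 69.5 and 72.7% in sh_control. CLDN1 made up 29.6 and 35.5% in sh_TDP43, 3.6 and 2.56% in sh_SRSF3 and 2.56 and 3.14% in sh_control. CLDN7 made up 27.5 and 18.5% in sh_TDP43, 48.1 and 43% in sh_SRSF3 and 25.9 and 22.6% in sh_control. Its share was thus highest in sh_SRSF3, where it was above that of CLDN4 in replicate 1 and below it in replicate 2.

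**Figure D3:**
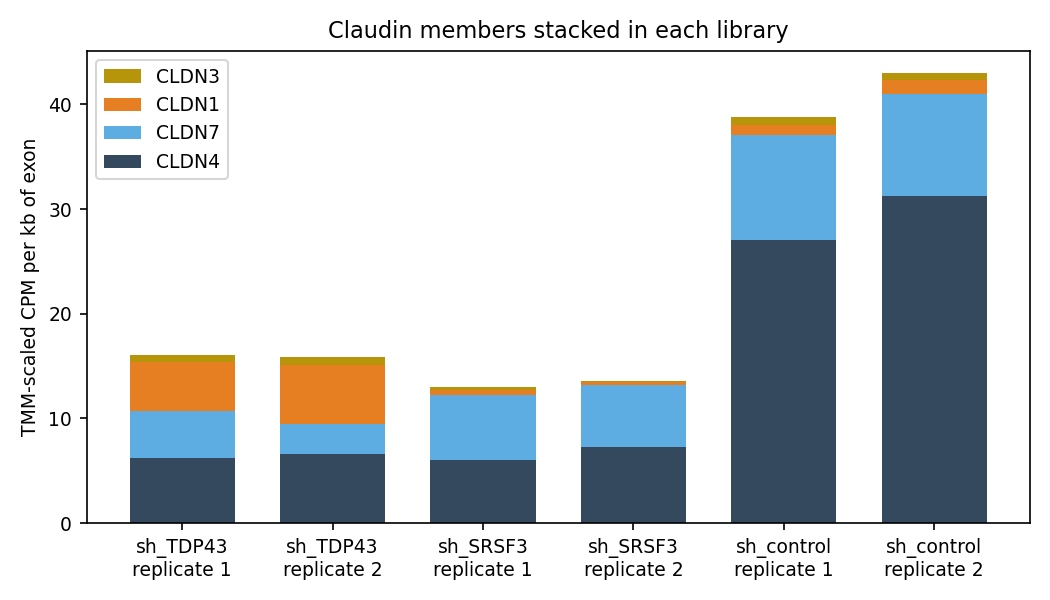
TMM-scaled CPM per kb of exon of CLDN4, CLDN7, CLDN1 and CLDN3, stacked for each hairpin library. The stacks reach 13 to 16.1 in the knockdown libraries and 38.8 and 42.9 in sh_control, and CLDN1 is a visible band in sh_TDP43.

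EPCAM was at 5.56 and 3.69 CPM in sh_TDP43, at 3.64 and 4.6 in sh_SRSF3 and at 8.1 and 4.46 in sh_control (ENSG00000119888; chromosome 2, 47572297 to 47614740). The sh_control libraries differed by more than the groups did, and both knockdowns overlapped them. Its log2 differences were -0.44 in sh_TDP43 (SE 0.29, edgeR adjusted p = 0.232) and -0.61 in sh_SRSF3 (SE 0.29, edgeR adjusted p = 0.0791). Without sh_control replicate 2 both passed, at -0.82 (adjusted p = 0.0283) and -0.98 (adjusted p = 0.00658), and without sh_control replicate 1 they were 0.05 (adjusted p = 0.923) and -0.11 (adjusted p = 0.764). With all libraries the sh_SRSF3 difference passed under upper-quartile scaling (-0.76, adjusted p = 0.0329) and with no filter on low counts (-0.60, adjusted p = 0.0138).

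ST14 was at 2.99 and 4.52 CPM in sh_TDP43, at 0.361 and 1.11 in sh_SRSF3 and at 2.18 and 3.47 in sh_control (ENSG00000149418; chromosome 11, 130029457 to 130080271). Both sh_SRSF3 libraries lay below the rest, and sh_TDP43 overlapped sh_control. It fell by 1.92 in sh_SRSF3 (SE 0.44, edgeR adjusted p = 0.00151), and the log2 difference in sh_TDP43 was 0.41 (SE 0.38, edgeR adjusted p = 0.41). The size of the fall depended on the sh_SRSF3 library: it was -1.35 without replicate 1 and -2.97 without replicate 2, both called. The sh_TDP43 level exceeded that of sh_SRSF3 by 2.33 (SE 0.44, edgeR adjusted p = 0.000323), with 1.75 without sh_SRSF3 replicate 1 and 3.38 without replicate 2.

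ESRP2 was at 4.94 and 5.16 CPM in sh_TDP43, at 5.53 and 5.48 in sh_SRSF3 and at 4.55 and 3.0 in sh_control (ENSG00000103067; chromosome 16, 68263014 to 68272005). All 4 knockdown libraries lay above the controls, and the controls were further from each other than the higher control was from the knockdowns. The log2 differences, 0.42 in sh_TDP43 (SE 0.23, edgeR adjusted p = 0.161) and 0.55 in sh_SRSF3 (SE 0.23, edgeR adjusted p = 0.0528), did not pass. Without sh_control replicate 1 they were 0.74 (adjusted p = 0.0387) and 0.87 (adjusted p = 0.00998), and without sh_control replicate 2 they were 0.14 (adjusted p = 0.682) and 0.27 (adjusted p = 0.359). Exons of ESRP2 overlap NFATC3 on the other strand.

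ESRP1 (ENSG00000104413; chromosome 8, 95653302 to 95719694), GRHL2 (ENSG00000083307; chromosome 8, 102504660 to 102681954) and OVOL1 (ENSG00000172818; chromosome 11, 65554493 to 65564690) were near the limit of detection. ESRP1 had 18 and 4 reads in sh_TDP43, 18 and 26 in sh_SRSF3 and 6 and 8 in sh_control, and it passed the filter on low counts through sh_SRSF3, its highest group. Its log2 change in sh_SRSF3 was 1.75 (SE 0.72, edgeR adjusted p = 0.0457). Over 12 alternatives the change lay between 1.51 and 1.94, and the call held in 5. The call ended with the DESeq2 test (adjusted p = 0.0925), with upper-quartile scaling (0.0664) and without either sh_SRSF3 replicate (0.0825 and 0.197), either sh_control replicate (0.185 and 0.125) or sh_TDP43 replicate 1 (0.0533). GRHL2 had 10 reads in sh_control replicate 1 and 0 in the other 5 libraries. OVOL1 had 8 reads in sh_TDP43 replicate 2, 2 in sh_control replicate 1 and 0 elsewhere. These 2 genes were not tested. A count of 0 allows up to 3 fragments, which are 0.0783 to 0.0901 CPM where each adds 1 read and 0.157 to 0.18 CPM where both mates are counted, for counting error only.

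The RIPs ask which RNAs were recovered with the tagged proteins. The tagged gene's RNA was high in its own cells, with TARDBP at 14.2 FPKM in the Flag-TDP43 input against 1.76 in the Flag-SRSF3 input, and SRSF3 at 54.9 in the Flag-SRSF3 input against 29.3 in the Flag-TDP43 input. FPKM is the authors' deposited level per kilobase and library size. With 1 library a group there is no replicate check and no test, and no control pulldown was analysed here. Values below are log2((RIP + 1)/(input + 1)), which understates the change of low genes, and a call is 2-fold on that scale among genes at 1 FPKM or more in RIP or input. CLDN1, CLDN3, CLDN4, CLDN7 and EPCAM met that level, CLDN1 only in the RIP of each protein and CLDN3 with TDP43 only in the input. Past 2-fold were 28.9% of 10647 genes for TDP43 (15.9% higher, 13.1% lower in the RIP) and 21.5% of 10693 for SRSF3.

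With Flag-TDP43, EPCAM was the 1 member of 5 past 2-fold, at 3.85 FPKM in the RIP and 1.27 in the input (log2 1.09). CLDN7 was at 18.9 in the RIP and 12.3 in the input (0.58), and CLDN1 at 1.08 and 0.512 (0.46). CLDN4 was lower in the RIP, at 14.6 against 28.7 FPKM (-0.93), and so was CLDN3, at 0.17 against 1.06 (-0.82). The median of the 5 was 0.46, beside 0.03 for all genes at that level. This median is the value of CLDN1, which reached 1 FPKM only in the RIP.

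With Flag-SRSF3, 0 of 5 members were past 2-fold, beside 14.7% of all genes higher and 6.82% lower in the RIP. CLDN4 was at 51.6 FPKM in the RIP and 28.5 in the input (0.83), CLDN3 at 2.78 and 1.57 (0.56) and CLDN1 at 1.26 and 0.559 (0.54). CLDN7 was at 5.91 in the RIP against 10.7 in the input (-0.75), and EPCAM at 1.29 against 1.69 (-0.23). CLDN3 and CLDN4 were thus above input with SRSF3 and below it with TDP43, and CLDN7 and EPCAM the other way round, each in 1 library pair. The input levels of CLDN4 were 28.7 in Flag-TDP43 cells and 28.5 in Flag-SRSF3 cells.

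A second deposited table gives a signal of unstated unit for the same 4 libraries, and it differed most for CLDN4. There CLDN4 in the Flag-TDP43 RIP was listed at 0.266 against 89.3 in its input, and the same measure was -6.16. The authors' deposited log2 fold changes of CLDN4 for TDP43 were -0.98 in the FPKM table and -8.39 in the second table. Of 10594 genes at that level in both tables, only 3, CLDN4 included, moved down that far from the FPKM table to the second, and the median move was -0.11. CLDN4 with SRSF3 was at 144 in the RIP and 89.3 in the input there (0.69). CLDN7, EPCAM, CLDN3 and CLDN1 kept their sign in both RIPs, EPCAM with TDP43 at 1.43.

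The other 5 members were under 1 FPKM throughout. ST14 was listed at 0 in both inputs of the FPKM table, and at 0.58 and 0.802 in the second table's Flag-TDP43 and Flag-SRSF3 inputs. GRHL2 and OVOL1 were listed at 0 in all 4 libraries of the FPKM table. Values of these 5 were therefore not read as recovery or loss.

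**Figure D4:**
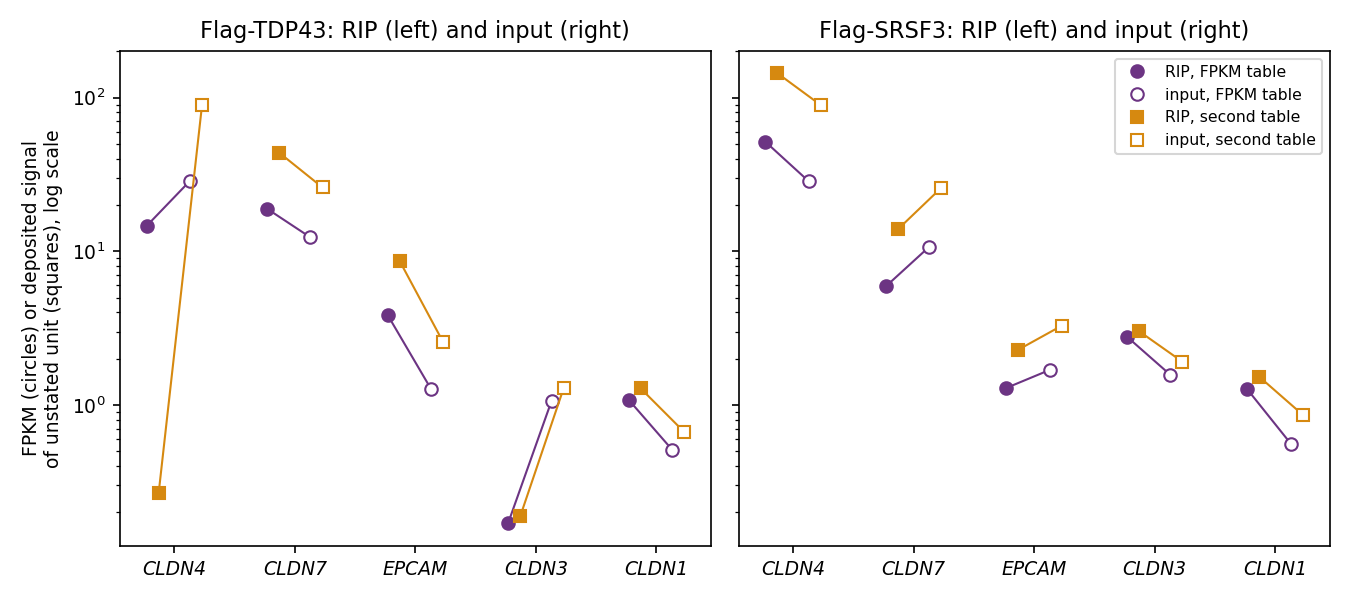
Level in the RIP (filled, left) and input (open, right) of the 5 members at 1 FPKM or more, for Flag-TDP43 and Flag-SRSF3 on a log axis; circles are FPKM and squares the second table's signal. CLDN4 in the Flag-TDP43 RIP is at 14.6 FPKM and at 0.266 in the second table.

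Genes related to the members were read from the same fit. Among 11 tested genes of 21 other claudins and claudin-domain genes, 1 was higher and 3 lower in sh_TDP43 (median -0.04), and 0 were higher and 6 lower in sh_SRSF3 (median -1.36), against 20.7% higher and 24.1% lower of all genes in sh_TDP43 and 32.5% and 34.4% in sh_SRSF3. CLDN12 was at 69.1 and 75.3 CPM in sh_TDP43, 15.6 and 14.8 in sh_SRSF3 and 56.3 and 69.2 in sh_control, and fell by 2.05 in sh_SRSF3 (SE 0.12). CLDN23 fell by 0.88 in sh_TDP43 and by 1.36 in sh_SRSF3, CLDND1 fell by 0.84 and by 0.34, and CLDN2 fell by 1.62 in sh_SRSF3. CLDN11, named after its values were seen, was at 2.45 and 1.9 CPM in sh_control, and fell by 2.28 in sh_TDP43 and by 2.70 in sh_SRSF3. The claudin that rose in sh_TDP43 was CLDN16, named after its values were seen, at 0.868 and 0.775 CPM in sh_TDP43, 0.0601 and 0.0554 in sh_SRSF3 and 0.0538 and 0 in sh_control. It had 32 and 29 reads in sh_TDP43 and at most 2 elsewhere, so it passed the filter on low counts only through sh_TDP43, and the count of 1 higher rests on it. CLDN16 begins at 190040330 on the plus strand of chromosome 3, next to the upstream end of CLDN1 at 190040264 on the minus strand. The part of this placement in either result was not tested.

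Tight junction partners, the scaffold and adhesion proteins beside claudins, had 2 of 11 higher and 5 lower in sh_TDP43 (median -0.45), and 8 higher and 2 lower in sh_SRSF3 (median 0.81). Of all tested genes, 20.7% were higher and 24.1% lower in sh_TDP43, and 32.5% and 34.4% in sh_SRSF3. No list was tested against these shares. The junction adaptor gene CGN was at 25.1 and 27.5 CPM in sh_TDP43, at 44.4 and 47.5 in sh_SRSF3 and at 5.65 and 4.85 in sh_control, and rose by 2.32 (SE 0.13) and by 3.13 (SE 0.14) in these knockdowns. In sh_SRSF3 CXADR rose by 1.21 and MPDZ by 1.05, while CGNL1 fell by 2.31. In sh_TDP43 MARVELD2, encoding tricellulin, fell by 2.08, the adhesion gene F11R fell by 1.69 and CGNL1 fell by 1.38. MARVELD2 was higher in sh_SRSF3, by 0.62 (SE 0.25, edgeR adjusted p = 0.0404).

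Other epithelial regulators had 2 of 13 higher and 4 lower in sh_TDP43 (median -0.07) and 4 higher and 5 lower in sh_SRSF3 (median -0.19). For this list and the next, the all-gene shares were 20.7% higher and 24.1% lower in sh_TDP43. In sh_SRSF3 they were 32.5% and 34.4%. SPDEF, an ETS factor of luminal cells, was at 7.46 and 9.73 CPM in sh_TDP43, 0.931 and 0.942 in sh_SRSF3 and 29.7 and 36 in sh_control, and fell by 1.93 in sh_TDP43 and fell by 5.13 in sh_SRSF3. KLF5 rose by 1.10 in sh_TDP43 and by 2.10 in sh_SRSF3. TFAP2C fell by 1.43 and KLF4 fell by 1.02 in sh_TDP43, and EHF fell by 2.07 and TP63 fell by 1.93 in sh_SRSF3. Epithelial-mesenchymal transition (EMT) transcription factors had 1 of 9 higher and 4 lower in sh_TDP43 (median -0.51) and 0 higher and 4 lower in sh_SRSF3 (median -0.76). The 1 higher was FOXC1. ZEB1 was at 46.4 and 42.8 CPM in sh_TDP43, 48.3 and 52.8 in sh_SRSF3 and 74.3 and 78.3 in sh_control, and fell by 0.77 and by 0.59. SNAI2 fell by 0.51 and by 0.76, TCF3 also fell by 0.51 and by 0.76, and SNAI1, under 2 CPM on average in each group, fell by 1.51 and by 1.97.

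Matriptase partners had 1 of 9 higher and 7 lower in sh_TDP43 (median -0.90), and 0 higher and 8 lower in sh_SRSF3 (median -1.42). For this list and the next, the all-gene shares were 20.7% higher and 24.1% lower in sh_TDP43. In sh_SRSF3 they were 32.5% and 34.4%. SPINT1, encoding the matriptase inhibitor HAI-1, was at 4.8 and 5.72 CPM in sh_TDP43, 0.601 and 0.942 in sh_SRSF3 and 3.15 and 4.07 in sh_control, and fell by 2.21 in sh_SRSF3 (SE 0.31), as ST14 did. F2RL1, the receptor PAR2 that matriptase can cleave, fell by 2.55 in sh_TDP43 (SE 0.13). PLAU, the urokinase gene, fell by 2.73 in sh_TDP43 and fell by 4.05 in sh_SRSF3. In sh_TDP43 PRSS22 fell by 1.83, and in sh_SRSF3 PRSS23 fell by 2.35 and CDCP1 by 1.82. EPCAM partners had 1 of 11 higher and 6 lower in sh_TDP43 (median -0.25) and 4 higher and 7 lower in sh_SRSF3 (median -0.76). LEF1 fell by 2.84 in sh_SRSF3, TSPAN8 fell by 1.90 in sh_TDP43 and fell by 2.29 in sh_SRSF3, and ADAM17, which can cleave EPCAM, fell by 0.69 in sh_TDP43 and rose by 1.42 in sh_SRSF3. PSEN2 fell by 1.14 in sh_TDP43 and CD9 fell by 1.32 in sh_SRSF3.

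Transcripts known to be spliced under ESRP control had 4 of 14 higher and 2 lower in sh_TDP43 (median 0.14) and 2 higher and 6 lower in sh_SRSF3 (median 0.03). Beside these stand 20.7% higher and 24.1% lower of all genes in sh_TDP43, and 32.5% and 34.4% in sh_SRSF3. SLC37A2 fell by 2.79 in sh_SRSF3 (SE 0.10), SCRIB fell by 1.16, CD44 fell by 1.04 and NF2 rose by 0.94. In sh_TDP43 ENAH rose by 0.69 and NUMB by 0.41, while CTNND1 fell by 0.44. Counts per gene sum all exons, so isoforms of these genes were not measured.

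**Figure D5:**
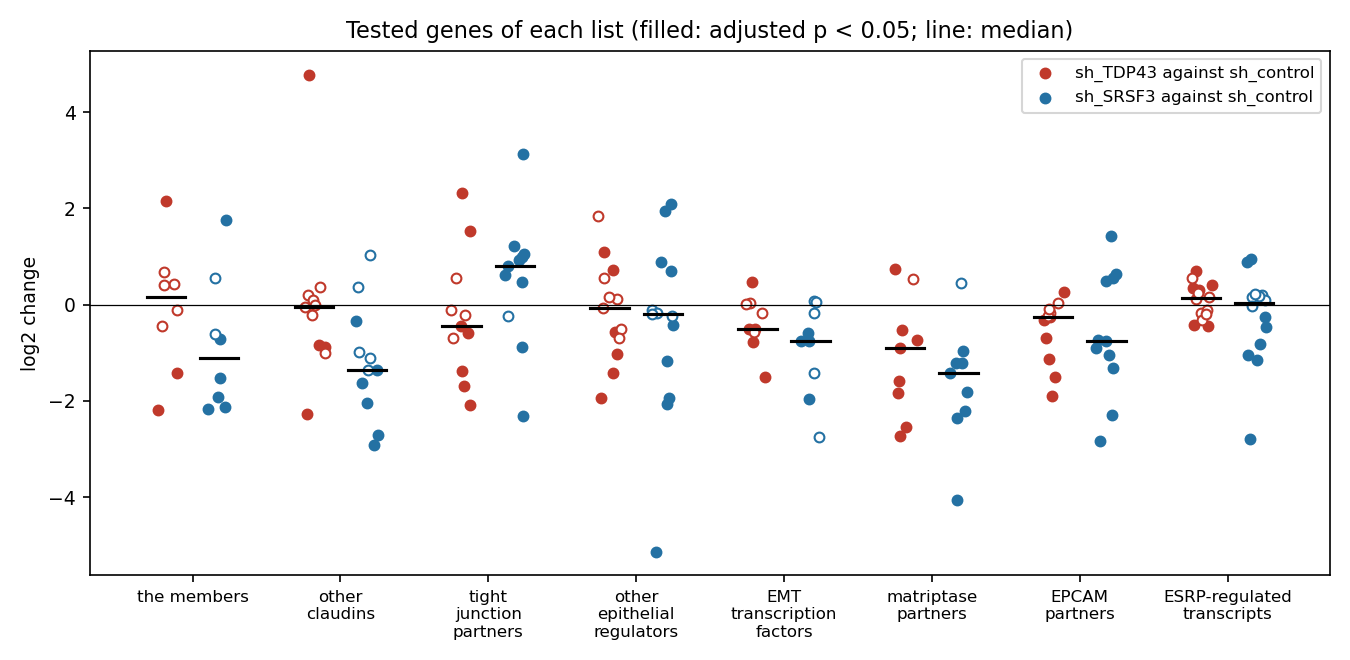
Log2 change against sh_control of the tested genes of each list in sh_TDP43 and sh_SRSF3; filled points have an adjusted p under 0.05 and lines are medians. Tight junction partners have medians of -0.45 in sh_TDP43 and 0.81 in sh_SRSF3, and the members 0.15 and -1.12.

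Profiles most like those of the 3 most variable members were found by the root mean square difference of centred log2(CPM + 0.1) over the 6 libraries, among 15026 genes. CLDN1 was closest to LRRN4 and CD34 (0.17 each) and MYPN (0.19), with r of 0.993 to 0.995. Genes close to ST14 were GRIN2D (0.16) and RP11-250B2.6 (0.19), with r of 0.989 and 0.986. CLDN4 was closest to TNFRSF13C (0.13), G0S2 (0.14) and ASB9 (0.15), with r of 0.99 to 0.997. G0S2 was at 24.6 and 31 CPM in sh_TDP43, 24.6 and 27.6 in sh_SRSF3 and 120 and 110 in sh_control. TNFRSF13C was at 0.15 to 0.222 CPM in the knockdown libraries and RP11-250B2.6 at 0 and 0.222 CPM in sh_SRSF3. At such levels the added 0.1 shapes the profile. All these genes were picked as the closest among 15026, so a high r was set by that choice. These values describe 6 shared libraries in 3 groups.

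Markers of the line and of other cells were read beside these results, and their part in the results was not tested. Over all tested genes, 20.7% were higher and 24.1% lower in sh_TDP43, and 32.5% and 34.4% in sh_SRSF3. The 6 mesenchymal markers of MDA-MB231 summed to 4000 to 4250 CPM in sh_TDP43, 5420 to 5740 in sh_SRSF3 and 6540 to 6650 in sh_control. Of these 6, 0 were higher and 4 lower in sh_TDP43, and 1 was higher (CAV1, by 0.57) and 4 lower in sh_SRSF3. Luminal markers summed to 1810 to 1920 CPM in sh_TDP43, 1710 to 1850 in sh_SRSF3 and 1460 in both sh_control libraries, mostly KRT8, KRT18 and KRT19, with PGR under 3 reads in every library. Of the 9 luminal markers tested, 3 were higher and 2 lower in sh_TDP43 and 2 higher and 4 lower in sh_SRSF3. Basal markers summed to 18 to 29 CPM in sh_TDP43, 4.27 to 4.54 in sh_SRSF3 and 20.9 to 24.4 in sh_control, with KRT5 under 3 reads throughout. Of 4 tested, 1 rose and 2 fell in sh_TDP43 and all 4 fell in sh_SRSF3. Fibroblast markers summed to 22.3 to 25 CPM in sh_TDP43, 39 to 43 in sh_SRSF3 and 22.7 to 23.8 in sh_control. Of 5 tested, 1 was higher and 1 lower in sh_TDP43 and 2 were higher and 1 lower in sh_SRSF3. Haematopoietic markers summed to 75.4 to 83.3 CPM in sh_TDP43, 37 to 38.6 in sh_SRSF3 and 119 to 147 in sh_control, nearly all CD68, with CD3E at or near 0. Of 3 tested, 1 was higher and 1 lower in sh_TDP43, and 0 were higher and 3 lower in sh_SRSF3. In sh_TDP43 PTPRC rose by 1.92, at 2.8 and 1.23 CPM against 0.43 and 0.626 in sh_control, while CD68 fell by 0.79. Markers of embryonic kidney packaging cells summed to at most 0.111 CPM in any library.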

How the data were processed

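Members and lists were chosen with earlier results of these data known. For the hairpin libraries the authors deposited raw counts over exons, made with featureCounts v1.4.6-p5 without a strand or read-pair option, per the file headers. Mates of a pair can thus each add a read: 64.8 to 69.2% of counts from 1 to 20 were even. GRCh37, STAR 2.5.2a, HISAT2 2.0.5, StringTie 1.3.0 and Cufflinks appear, with no role, in the submitters' processing notes. Count columns whose names match no label numbered 2 and were not used. The RIP values deposited by the authors are FPKM per gene in 1 table, per the file headers, and a signal of unstated unit in another; both also hold the authors' deposited log2 fold changes. Which tool made each RIP table, and at what depth, was not found in the sources.

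The test was that of edgeR 4.0.16 under R 4.3.3 (TMM, filterByExpr, quasi-likelihood F-test, two-sided, Benjamini-Hochberg over 15026 genes), all 6 libraries in 1 fit with 3 residual degrees of freedom. SE is the log2 change divided by the root of F. Duplicates differed beyond counting noise (chi-square per gene 11.3 to 23.1). The procedure was also run on simulated counts with a common spread and far fewer changed genes than here, so that run cannot vouch for these calls. DESeq2 1.42.0, other scalings and filters, a replicate block and leaving out each library were alternatives, and the second RIP table was added after seeing the data. Gene length is the summed exon length of the count table. Besides the 10 members, TARDBP and SRSF3, up to 4 genes per list and knockdown are named: those called, at a mean of 1 CPM or more, with the largest change, plus the 3 genes closest in profile to each of the 3 most variable members; a few genes that this rule names are not reported here. The lists were other claudins, tight junction partners, other epithelial regulators, EMT transcription factors, matriptase partners, EPCAM partners, ESRP-regulated transcripts and cell type markers.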

Additional observations from a re-analysis of the deposited data

Results flagged for a closer look

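CLDN1 changed in opposite directions in the knockdowns, at a log2 change of 2.15 in sh_TDP43 and -1.52 in sh_SRSF3, and the difference between them was tested itself. It was 3.67 (SE 0.23, edgeR adjusted p = 9.96e-09), with both sh_TDP43 libraries above and both sh_SRSF3 libraries below the controls. Over 12 alternatives the difference lay between 3.48 and 3.92, with adjusted p-values from 6.48e-63 to 9.03e-07.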

How the results depend on the processing

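Among recomputed log2 changes of members, 261 kept their direction and their side of the threshold, 9 calls were gained, 9 were lost and 8 changes turned in sign, none of these 8 called. CLDN1, CLDN4, CLDN7 and ST14 kept every call under all 12 alternatives, with the size of the ST14 changes resting on single sh_SRSF3 libraries as given above. Leaving out 1 library at a time turned these signs. In sh_TDP43 against sh_control, ESRP1 lay between -0.78 (without sh_TDP43 replicate 1) and 1.39, CLDN3 between -0.25 and 0.04 (without sh_control replicate 1) and EPCAM between -0.82 and 0.05 (without sh_control replicate 1). In sh_TDP43 against sh_SRSF3, CLDN4 lay between -0.20 and 0.10 (without sh_SRSF3 replicate 2) and EPCAM between -0.17 (without sh_TDP43 replicate 1) and 0.45, with -0.00071 without sh_SRSF3 replicate 1. Upper-quartile scaling turned CLDN4 to 0.19 and ESRP2 to 0.12 there. It shifted the all-gene median by 0.25, and its calls were 6451 higher and 3378 lower (5041 and 4801 with TMM). The replicate block, whose numbers the labels tie to no batch (correlations of deviations 0.0755 to 0.12), gave 7672, 10565 and 10413 calls against 6728, 10045 and 9842, and among members changed only ESRP2 in sh_SRSF3 (adjusted p = 0.0291). For TDP43 the members past 2-fold numbered 2 with a pseudocount of 0.1, 0 at 5 FPKM or more, 3 by the authors' deposited fold changes and 2 in the second table, against 1; the genes past 2-fold numbered 4349, 2192, 4517 and 3446 there, against 3081, and only CLDN4 and CLDN7 reached 5 FPKM. For SRSF3 genes past 2-fold were 3484 with a pseudocount of 0.1 and 3636 by the deposited fold changes, against 2303, with 1 member (CLDN1) each. The cause was not tested. ESRP1, GRHL2, OVOL1 and CLDN3 are limited by depth, and the combined knockdown was not analysed here.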

Other observations

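Regulators related to the members were also read in the RIPs, at 1 FPKM or more, with no test. With Flag-SRSF3, 4 of 5 EMT transcription factors were at least 2-fold above input (median 1.09), beside 14.7% of all genes (median 0.18). SNAI2 was at 7.77 FPKM in the RIP and 3.13 in the input, TCF3 at 13.8 and 5.05, and FOXC1 at 6.57 and 2.62. SNAI1 was at 1.6 in the RIP and listed at 0 in the input. It reached 1 FPKM only through that RIP, so its place above input was set by that minimum. SNAI1 is not among the 4 factors read with Flag-TDP43. With Flag-TDP43, 0 of 4 such factors were past 2-fold above input, beside 15.9% of all genes, and TCF3 was below it, at 2.37 against 8.23. SPDEF was at 63.1 FPKM in the Flag-SRSF3 RIP and 16.1 in its input, and at 5.22 in the Flag-TDP43 RIP and 23.6 in its input. EHF was at 29.2 in the Flag-TDP43 RIP and 3.48 in its input. The adhesion gene F11R was at 1.74 in the Flag-TDP43 RIP and 0.268 in its input, and at 0.793 in the Flag-SRSF3 RIP and 4.48 in its input. F11R reached 1 FPKM only in the RIP with TDP43 and only in the input with SRSF3. These genes were named after their values were seen.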
